A study of Mus musculus with 4 samples.

Results

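The circadian clock genes described here were 10 genes taken by symbol (Clock, Per1, Per2, Per3, Cry1, Cry2, Nr1d1, Nr1d2, Dbp and Tef), and all 10 were among the 24873 genes listed. RNA-Seq had been performed on cerebral cells that the study isolated as CD31+CD45–, a gate for endothelial cells (ECs), and that the sample labels name Brain tdTomato+. All mice had the genotype Cdh5cre;Mgpflox/flox, in which a tamoxifen-activated Cre recombinase stands under the promoter of Cdh5, the VE-cadherin gene of ECs, and the gene of matrix Gla protein, Mgp, is flanked by its target sites. The control group was labelled No Tamoxifen, so its cells carried the same Cre and floxed alleles without the drug. The Tamoxifen treated group received 75 mg/kg by injection on 5 days from 10 weeks of age, and cells of both groups were collected on day 9. Each group had 2 libraries, and a figure legend of the study describes its RNA-Seq groups as independent, each with cells pooled from 3 mice. The methods of the study give 3 mice per group, so it is not certain that the 2 libraries of a group came from separate pools. The p-values below measure the spread between libraries. No library came from mice given tamoxifen without the floxed gene, and the drug and the deletion cannot be told apart here. The hour of the day at which the tissue was taken is not given in the sources used here.

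The circadian clock is a loop of transcription and feedback that runs in almost every cell, including vascular endothelium, with a period close to a day. CLOCK pairs with BMAL1 and binds E-box sequences, which switches on the Period and Cryptochrome genes, whose proteins gather in the cytoplasm, return to the nucleus and block CLOCK and BMAL1. The same pair switches on Nr1d1 and Nr1d2, the genes of the nuclear receptors REV-ERBα and REV-ERBβ, which repress Bmal1, and on Dbp, a factor that with its relative Tef binds D-box sequences of output genes. Transcripts of most of these genes rise and fall over the day in living tissue, and the brain vasculature is one of the tissues in which such cycling is known.

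Mgp, the targeted gene, was measured at 1094 and 1352 normalized counts in control 1 and 2 and 945 and 909 in tamoxifen 1 and 2. Each tamoxifen value was under each control value, with a log2 fold change of -0.39 (SE 0.18, BH-adjusted p = 0.0986 by limma), so Mgp did not pass the threshold. Its log2 fold change depended on the scaling, at 0.079 with the libraries rescaled to equal totals and -0.65 with quantile normalization (limma, BH-adjusted p = 0.713 and 0.0128). With 1 library left out, the log2 fold change of Mgp ran from -0.54 to -0.24. The normalized counts are read counts divided by a single factor for each library, and fold changes were taken on log2(normalized count + 1), tamoxifen against control. Reads on genes came to 37475154 and 41025014 in control 1 and 2 and to 35387438 and 49799321 in tamoxifen 1 and 2. Each member had at least 768 reads in each library, far above the 3 reads taken as the floor. The endothelial identity of the cells was checked with 10 markers (Pecam1, Cdh5, Cldn5, Kdr, Tie1, Tek, Eng, Flt1, Vwf and Slco1a4), whose summed level was 1326795 and 1293699 in control 1 and 2 and 217494 and 106562 in tamoxifen 1 and 2. None of these markers was at the floor in any library. All 10 were called lower with tamoxifen, beside 16.0% of all tested genes, with a median log2 fold change of -2.94, and Flt1 was the most abundant, with group means of 298067 for control and 31949 for tamoxifen. In such bulk samples fewer cells of a type and less RNA per cell cannot be told apart, and this holds for each clock gene below.

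Transcripts of 8 of the 10 clock genes were less abundant in the tamoxifen libraries than in the controls, Cry1 differed little, and Cry2 was more abundant. The summed level of the 10 genes was 45661 and 50178 in control 1 and 2 and 20383 and 21767 in tamoxifen 1 and 2 normalized counts. Genes were called at an adjusted p under 0.05 together with a log2 fold change over 1 in size (limma, Benjamini-Hochberg (BH) adjustment over the 20485 genes whose mean reached 10 normalized counts). Called lower were 6 of the 10 members (Clock, Per1, Per3, Nr1d1, Nr1d2 and Dbp), against 16.0% of all tested genes. With edgeR and with DESeq2 on the recovered reads 5 members were called lower, against 16.5% and 14.9% of all tested genes. Called higher were 0 of the 10, against 28.6% of all tested genes, and the same count of 0 was found with edgeR and with DESeq2 on the recovered reads, whereas 1 member, Cry2, was higher at an unadjusted limma p under 0.05 without the size cut-off, against 35.3% of tested genes. With the adjusted p alone, 8 members passed as lower, against 25.5% of tested genes, and 1 as higher, against 33.4%. Both tamoxifen libraries lay under both control libraries for 8 members, against 39.2% of tested genes. The median log2 fold change of the 10 members was -1.15, beside 0.051 over all tested genes. The normalized counts of all genes summed to 51330925 and 51346697 in control 1 and 2 and to 38352708 and 35800643 in tamoxifen 1 and 2. Rescaling the libraries to equal totals therefore raised the median of all tested genes by 0.47 and left 3 members called lower and 1, Cry2, called higher (8.97% and 35.2% of all tested genes at that scaling), while quantile normalization lowered that median by 0.28 on the log2 scale (a shift of -0.28) and had 6 members called lower and 0 higher (26.9% and 22.5% of all tested genes). Taken relative to the median of all tested genes, the members' median was -1.20 as deposited, -1.20 with equal totals and -0.86 with quantile normalization.

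**Figure D1:**
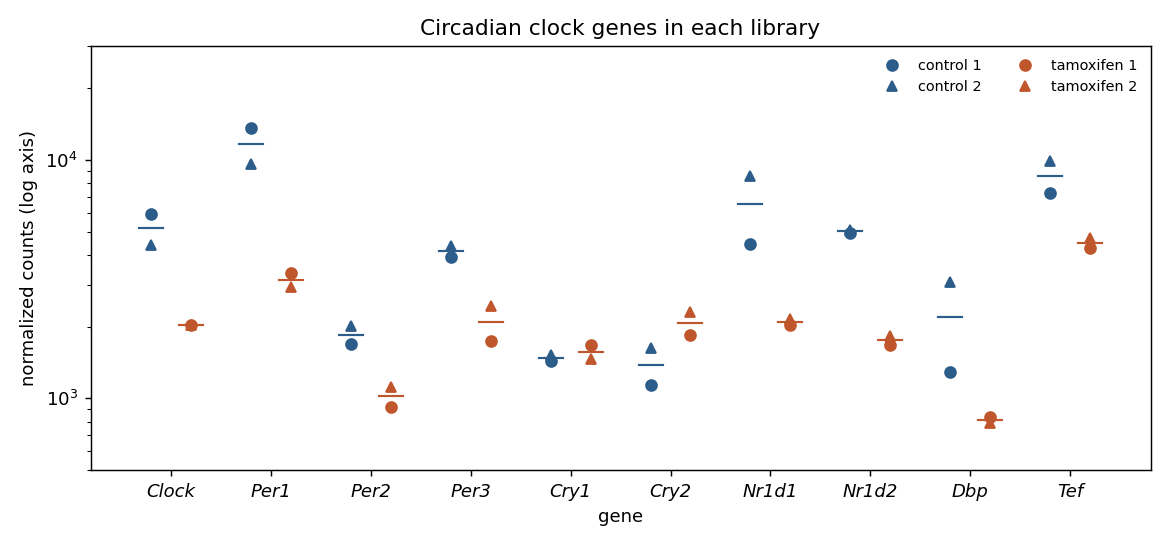
Normalized counts (log axis) of each circadian clock gene in control 1 and 2 (blue) and tamoxifen 1 and 2 (orange), with the mean of each group of 2 libraries as a short line. For 8 genes both orange points lie under both blue points, for Cry1 they overlap, and for Cry2 they lie above.

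Clock encodes the bHLH-PAS protein that joins BMAL1 at E-boxes. It had 5947 and 4411 normalized counts in control 1 and 2 and 2036 and 2023 in tamoxifen 1 and 2. The tamoxifen libraries were nearly equal, and both lay below the lower control. The log2 fold change was -1.33 (SE 0.18, BH-adjusted p = 0.000528 by limma). It stayed under the cut-off of the adjusted p in 14 of 15 alternatives, the exception being the fit without tamoxifen 2, where the adjusted p was 0.0544 (limma and BH, range over the alternatives 8.73e-11 to 0.0544), and with equal totals its log2 fold change was -0.86, short of the size cut-off.

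The 3 Period genes encode the repressors that carry Cryptochrome proteins back to the nucleus. Per1, which also responds to glucocorticoids and to cAMP signalling, had 13584 and 9606 normalized counts in control 1 and 2 and 3369.5 and 2929 in tamoxifen 1 and 2. Its groups lay far apart, with a log2 fold change of -1.86 (SE 0.20, BH-adjusted p = 0.000190 by limma). Per1 stayed past both cut-offs in all 15 alternatives (log2 fold change -2.11 to -1.39). Per2, the member whose loss in mice shortens and then ends free-running rhythms, had 1692 and 2009 normalized counts in control 1 and 2 and 923 and 1114 in tamoxifen 1 and 2. Both tamoxifen libraries were below both controls, and the log2 fold change was -0.86 (SE 0.18, BH-adjusted p = 0.00466 by limma), so it passed the adjusted p and not the size cut-off. With equal totals Per2 was at -0.39 (limma, BH-adjusted p = 0.113) and with quantile normalization at -1.01, past both cut-offs, and the adjusted p was 0.0740 without tamoxifen 1 and 0.0526 without tamoxifen 2 (limma and BH). Per3, which is less needed for rhythm than its relatives, had 3917 and 4354 normalized counts in control 1 and 2 and 1743 and 2436 in tamoxifen 1 and 2. Its groups did not overlap either, although tamoxifen 2 was the closer of the pair to the controls. The log2 fold change of Per3, -1.003 (SE 0.19, BH-adjusted p = 0.00306 by limma), lay at the size cut-off, so that it was called in 9 of 15 alternatives and in neither count model (edgeR -0.99, DESeq2 -0.97). Without control 2 it was -0.93 and without tamoxifen 1 it was -0.76, both short of that size, and it was -0.53 with equal totals (limma, BH-adjusted p = 0.0671) and -0.84 with quantile normalization.

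Cry1 and Cry2 encode the strongest repressors of CLOCK and BMAL1, flavoproteins related to the photolyases. Cry1 had 1430.0 and 1522 normalized counts in control 1 and 2 and 1671 and 1469 in tamoxifen 1 and 2. The groups overlapped, since tamoxifen 2 lay between the control libraries, and the log2 fold change was 0.087 (SE 0.16, BH-adjusted p = 0.663 by limma). With equal totals it was 0.56 and passed the adjusted p (limma and BH, 0.0131). Cry2 had 1141 and 1619.6 normalized counts in control 1 and 2 and 1847 and 2303 in tamoxifen 1 and 2. Both tamoxifen libraries were above both controls, although tamoxifen 1 exceeded control 2 by less than the controls differed from each other. The log2 fold change of Cry2 was 0.60 (SE 0.21, BH-adjusted p = 0.0424 by limma), and 9 of 15 alternatives kept the BH-adjusted limma or count-model p under 0.05 (0.00422 to 0.316). Among those that lost it, the fit without control 1 gave a log2 fold change of 0.35 (limma, BH-adjusted p = 0.257), whereas with equal totals it was 1.07 and past both cut-offs.

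Nr1d1 and Nr1d2 encode heme-binding receptors that recruit the corepressor NCoR to ROR elements. Nr1d1 had 4432 and 8585 normalized counts in control 1 and 2 and 2032 and 2153 in tamoxifen 1 and 2. Control 2 held nearly double the level of control 1, whereas the tamoxifen libraries were close together and below both. The log2 fold change was -1.56 (SE 0.28, BH-adjusted p = 0.00228 by limma). Leaving out tamoxifen 1 or tamoxifen 2 kept its size but not the adjusted p (limma and BH, 0.115 and 0.115, range over the alternatives 3.30e-14 to 0.115). Nr1d2 had 4949 and 5096 normalized counts in control 1 and 2 and 1670.1 and 1831 in tamoxifen 1 and 2. Both groups were tight and well separated, with a log2 fold change of -1.52 (SE 0.15, BH-adjusted p = 0.000122 by limma), and it stayed past both cut-offs in all 15 alternatives. The REV-ERB genes thus had log2 fold changes that differed by less than either standard error, and differed in how much the control libraries varied. Their likeness rested on both controls. Without control 1 Nr1d1 was at -2.04 and Nr1d2 at -1.54, and without control 2 they were at -1.08 and -1.50.

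Dbp and Tef encode PAR bZIP factors, activators at D-boxes of genes for detoxification and metabolism, and Dbp is among the transcripts with the deepest daily cycle in most tissues. Dbp had 1294 and 3075 normalized counts in control 1 and 2 and 832 and 792 in tamoxifen 1 and 2. Control 2 was far above the other libraries, and control 1 was above both tamoxifen libraries. The log2 fold change was -1.30 (SE 0.36, BH-adjusted p = 0.0154 by limma). Dbp lost its call in 5 of 15 alternatives: with equal totals its log2 fold change was -0.83, the fit without the trend gave an adjusted p of 0.0908 (limma and BH), without control 2 the log2 fold change was -0.67, and the adjusted p was 0.212 without tamoxifen 1 and 0.238 without tamoxifen 2 (limma and BH, range over the alternatives 2.88e-09 to 0.238). Tef, whose transcript cycles less than that of Dbp, had 7275 and 9900.1 normalized counts in control 1 and 2 and 4258 and 4717 in tamoxifen 1 and 2. The groups were apart, with a log2 fold change of -0.92 (SE 0.19, BH-adjusted p = 0.00435 by limma), short of the size cut-off. Without control 1 the log2 fold change of Tef was -1.14, past both cut-offs, whereas with equal totals it was -0.45 and with quantile normalization -0.49 and lost the adjusted p (limma and BH, 0.0804 and 0.0616), as it did without tamoxifen 1 (0.0985) and without tamoxifen 2 (0.0841).

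The control libraries differed from each other in some members. On the log2 scale, control 2 minus control 1 was 1.25 for Dbp and 0.95 for Nr1d1. Of the 7788 tested genes whose mean reached 1000 normalized counts, 0.398% differed between the controls by as much as Dbp and 1.26% by as much as Nr1d1, the median size of the difference being 0.17. Dbp and Nr1d1 were thus near the end of that distribution in the controls. The same difference was 0.50 for Cry2 and 0.44 for Tef, and it had the opposite sign for Per1 (-0.50) and Clock (-0.43). Per2 (0.25), Per3 (0.15), Cry1 (0.09) and Nr1d2 (0.042) differed less. Between the tamoxifen libraries, the difference of tamoxifen 2 minus tamoxifen 1 was -0.073 for Dbp and 0.083 for Nr1d1, and its widest values among the members were 0.48 for Per3 and 0.32 for Cry2. The Dbp and Nr1d1 transcripts therefore varied between the control libraries and hardly between the tamoxifen libraries.

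Levels were compared between genes per kilobase of the canonical transcript in the annotation, as group means of normalized counts per kilobase. In the controls the order was Nr1d1 (2392), Tef (2023), Per1 (1733), Dbp (1189), Nr1d2 (886), Per3 (687), Clock (523), Cry1 (484), Cry2 (334) and Per2 (317) normalized counts per kilobase. Nr1d1 (1629 to 3155 per kilobase), Tef (1714 to 2333) and Per1 (1436 to 2030.1) overlapped between libraries and could not be ordered, Dbp (705 to 1674) spanned from the level of Per3 to that of Nr1d1, and Cry1 lay within the range of Clock and Per2 within that of Cry2. In the tamoxifen libraries the order was Tef (1057), Nr1d1 (769), Cry1 (515), Cry2 (501), Per1 (471), Dbp (442), Per3 (347), Nr1d2 (309), Clock (205) and Per2 (175) normalized counts per kilobase. The Cryptochrome genes, which were 8th and 9th of the 10 members in the controls, were 3rd and 4th by group mean with tamoxifen, where Cry2 (446 to 556 per kilobase) overlapped Cry1, Per1 and Dbp between libraries and could not be ordered among them. Per1 (438 to 504) also overlapped Cry1 (482 to 548) and Dbp (431 to 453). Nr1d2 (295 to 323) lay within the range of Per3 (290 to 405), so this pair could not be ordered either. Tef and Nr1d1 led the order in tamoxifen without overlap between them or with any other member. Per2 was last by group mean in both groups, although in control 1 Cry2 (276 per kilobase) was below Per2 (290).

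Ratios of 2 genes within a library do not depend on the single factor by which a library was scaled, but they do change with quantile normalization, which was added for the ratios after the data were seen. The log2 ratio of Per1 to Cry1 was 3.25 and 2.66 in control 1 and 2 and 1.01 and 0.99 in tamoxifen 1 and 2, and the group means differed by -1.95. The balance thus moved from Per1 toward Cry1 in both tamoxifen libraries, and the difference ranged from -2.24 to -1.65 when any 1 library was left out and was -1.50 with quantile normalization. Within the Period family the log2 ratio of Per1 to Per2 was 3.005 and 2.26 in control 1 and 2 and 1.87 and 1.39 in tamoxifen 1 and 2 (difference -1.001), and that of Per1 to Per3 was 1.79 and 1.14 in control 1 and 2 and 0.95 and 0.27 in tamoxifen 1 and 2 (difference -0.86). The groups did not overlap in either ratio as deposited, and the difference ranged from -1.37 to -0.63 and from -1.20 to -0.52 with 1 library left out. With quantile normalization the differences were -0.46 and -0.63 and the groups overlapped, so the differences kept their sign and the groups were no longer apart. Per2 and Per3 kept a log2 ratio with overlapping groups, -1.21 and -1.12 in control 1 and 2 and -0.92 and -1.13 in tamoxifen 1 and 2. The log2 ratio of Cry2 to Cry1 was -0.33 and 0.09 in control 1 and 2 and 0.14 and 0.65 in tamoxifen 1 and 2, a difference of 0.51 (0.26 to 0.77 with 1 library left out) with groups that were apart by less than the controls differed. For Nr1d1 to Nr1d2 (-0.16 and 0.75 in control 1 and 2 and 0.28 and 0.23 in tamoxifen 1 and 2) and for Dbp to Tef (-2.49 and -1.69 in control 1 and 2 and -2.35 and -2.57 in tamoxifen 1 and 2) the groups overlapped, the controls themselves differing by more than the group means, although with quantile normalization the groups of Dbp to Tef were apart (difference -1.04). The ratios were described and not tested.

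The other transcription factors of the clock, 10 genes counted here, moved in both directions, with 4 called higher and 3 called lower, beside 28.6% and 16.0% of all tested genes, and a median log2 fold change of -0.21 (all tested genes 0.051). Bmal1, the partner of CLOCK, had 2069.7 and 1393 normalized counts in control 1 and 2 and 971 and 1099.9 in tamoxifen 1 and 2, with both tamoxifen libraries below both controls and a log2 fold change of -0.72 (SE 0.22, BH-adjusted p = 0.0237 by limma). The adjusted p of Bmal1 stayed under 0.05 in 10 of 15 alternatives. Its log2 fold change was -0.43 without control 1, -1.001 without control 2 and -0.86 with quantile normalization. With equal totals it was -0.25 (limma, BH-adjusted p = 0.383). Npas2, a paralog that can replace CLOCK as the partner of BMAL1, had 45.2 and 77.6 normalized counts in control 1 and 2 and 266 and 519.8 in tamoxifen 1 and 2. It was the reverse of Clock, low in the controls and higher in both tamoxifen libraries (log2 fold change 2.63, limma, BH-adjusted p = 0.00183). The log2 ratio of Npas2 to Clock was -7.01 and -5.81 in control 1 and 2 and -2.93 and -1.96 in tamoxifen 1 and 2, and per transcript length Npas2 still stood at 0.300 and 0.592 of the Clock level in tamoxifen 1 and 2.

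Other paralogous pairs also parted. Rora and Rorb encode activators that compete with the REV-ERB proteins for the same elements. Rora had 4889.9 and 3884 normalized counts in control 1 and 2 and 1524 and 1914 in tamoxifen 1 and 2, a fall in both tamoxifen libraries (log2 fold change -1.35, limma, BH-adjusted p = 0.000587). Rorb, best known from neurons and retina, had 114 and 171 normalized counts in control 1 and 2 and 623 and 1450.0 in tamoxifen 1 and 2 and was higher in both, most of all in tamoxifen 2 (log2 fold change 2.76, limma, BH-adjusted p = 0.000897). Bhlhe40 and Bhlhe41 encode DEC1 and DEC2, repressors that occupy E-boxes. Bhlhe40 had 8758 and 7182 normalized counts in control 1 and 2 and 4173 and 3175 in tamoxifen 1 and 2 (log2 fold change -1.12, limma, BH-adjusted p = 0.00169). Bhlhe41 had 45.2 and 150.2 normalized counts in control 1 and 2 and 388 and 461 in tamoxifen 1 and 2 and was higher in both tamoxifen libraries, with control 2 well above control 1 (log2 fold change 2.34, limma, BH-adjusted p = 0.00687). Its log2 fold change ran from 1.49 to 3.20 with 1 library left out and was 1.29 with quantile normalization (limma, BH-adjusted p = 0.0897). Bhlhe41 also lost its call without tamoxifen 1 (2.47) and without tamoxifen 2 (2.22), by the adjusted p and not by size. Ciart, the gene of the repressor CHRONO, had 1515 and 1297 normalized counts in control 1 and 2 and 332 and 315 in tamoxifen 1 and 2. Its log2 fold change was lower than that of any member (log2 fold change -2.11, limma, BH-adjusted p = 0.000102). Nfil3 encodes E4BP4, which represses at the D-boxes that DBP and TEF activate, and had 309.6 and 249 normalized counts in control 1 and 2 and 589.6 and 536 in tamoxifen 1 and 2. It was higher in both tamoxifen libraries (log2 fold change 1.02, limma, BH-adjusted p = 0.00820), the opposite direction to Dbp, and the log2 ratio of Nfil3 to Dbp was -2.06 and -3.62 in control 1 and 2 and -0.50 and -0.56 in tamoxifen 1 and 2. The call by both cut-offs was kept in 15 of 15 alternatives by Ciart, in 14 by each of Npas2, Rora and Rorb, in 12 by Bhlhe41, in 11 by Bhlhe40 and in 10 by Nfil3, whose log2 fold change was 0.17 after quantile normalization. Npas2 and Rorb lost the adjusted p without tamoxifen 2 (limma and BH, 0.0941 and 0.0609), and Npas2 was at 1.56 with quantile normalization. Hlf, the 3rd PAR bZIP gene (log2 fold change -0.29), and Bmal2 (-0.13) did not pass the adjusted p, and Bmal2 was at -1.10 and past both cut-offs with quantile normalization. With 1 library left out, Bmal2 ran from -0.22 to -0.041. Bmal1, Nfil3, Hlf and Bmal2 fell outside the rule for named genes and were added after their values were seen.

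**Figure D2:**
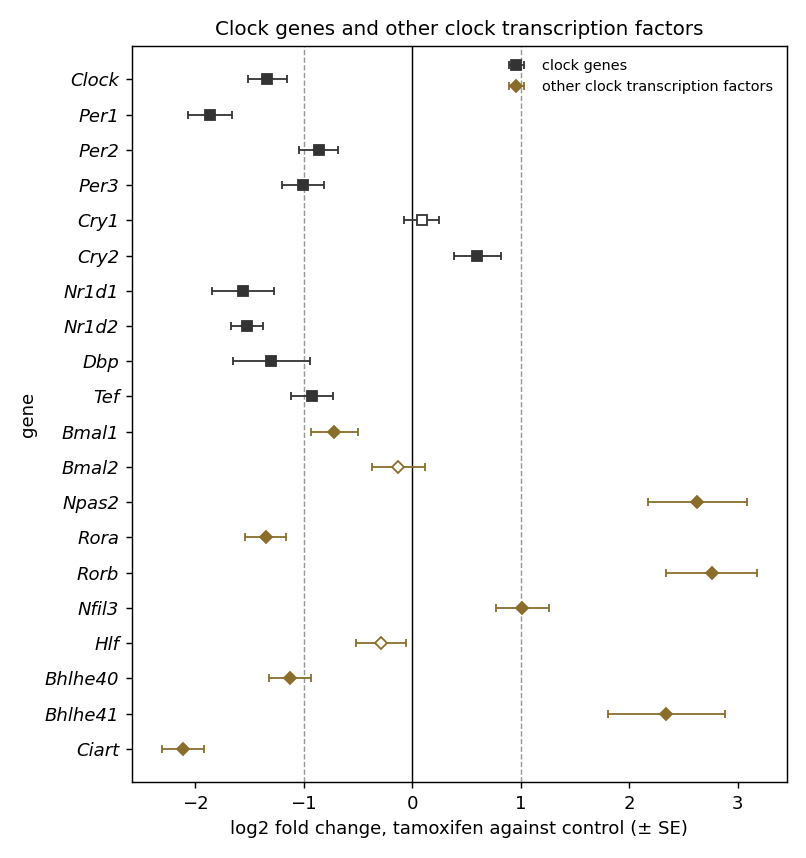
Log2 fold changes, tamoxifen against control, with the standard error from limma, for the 10 circadian clock genes (squares) and 10 other clock transcription factors (diamonds). Filled symbols have an adjusted p under 0.05, and dashed lines mark a log2 fold change of -1 and 1. The members lie left of 0 except Cry1 and Cry2, whereas Npas2, Rorb and Bhlhe41 lie right of 2.

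Of 11 genes for kinases, ligases and other partners of clock proteins, 3 were called higher and 0 lower, beside 28.6% and 16.0% of all tested genes. The share called higher was thus near that of all genes, with a median log2 fold change of 0.32. Fbxl21, the gene of an F-box protein that acts on the Cryptochromes, was scarce, with 4.11 and 11.3 normalized counts in control 1 and 2 and 32.5 and 64.0 in tamoxifen 1 and 2 (log2 fold change 2.56). Control 1 held 3 reads of it, which is the floor, and its call was lost with quantile normalization, without tamoxifen 1 and without tamoxifen 2 (limma and BH, 0.0814, 0.0768 and 0.139). Csnk1d, a kinase of the Period proteins, had 9583 and 10298 normalized counts in control 1 and 2 and 7089 and 6293 in tamoxifen 1 and 2 (log2 fold change -0.57, short of the size cut-off), and Fbxw11, a ligase subunit that recognises phosphorylated Period proteins, had a log2 fold change of -0.75. Gsk3b, a kinase of several clock proteins, had 9821 and 8272 normalized counts in control 1 and 2 and 5927 and 6522 in tamoxifen 1 and 2, with both tamoxifen libraries below both controls (log2 fold change -0.54, short of the size cut-off). These 3 falls depended on the scaling, with log2 fold changes of -0.10 for Csnk1d, -0.28 for Fbxw11 and -0.065 for Gsk3b with equal totals and -0.05, -0.31 and -0.038 with quantile normalization, none past the adjusted p. Usp2, a deubiquitinase whose transcript cycles in most tissues, had 151 and 408 normalized counts in control 1 and 2 and 1011 and 1333 in tamoxifen 1 and 2, and Tipin, a partner of TIMELESS in replication, had 575 and 835 normalized counts in control 1 and 2 and 3195 and 2831 in tamoxifen 1 and 2. Both were called higher (log2 fold changes 2.22 and 2.12, limma, BH-adjusted p = 0.00309 and 0.000132). Tipin kept the call in all 15 alternatives, whereas Usp2 lost it without tamoxifen 1 and without tamoxifen 2 (limma and BH, 0.108 and 0.154), and its log2 fold change ran from 1.51 to 2.94 with 1 library left out. Among 4 output genes, Nampt, whose product makes NAD from nicotinamide, was called lower at 34421 and 29166 normalized counts in control 1 and 2 and 9920.0 and 6590.1 in tamoxifen 1 and 2 (log2 fold change -1.97), and Wee1 (0.80), Noct (-0.37) and Klf10 (0.33) were not called, of which Wee1 passed both cut-offs with equal totals (1.27). With 1 library left out the log2 fold change ran from -0.69 to -0.058 for Noct, past the adjusted p without control 2 (limma and BH, 0.0192), and from 0.15 to 0.50 for Klf10, which passed the adjusted p with equal totals (0.80) and with quantile normalization (0.49).

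Per1 is known as a target of the glucocorticoid receptor and of signals that induce immediate early genes, so lists of both were set beside it. Of 8 glucocorticoid-responsive genes, 5 were called lower and 1 higher (all tested genes 16.0% and 28.6%), with a median log2 fold change of -1.13. Tsc22d3 (-1.97), Zbtb16 (-1.60), Ddit4 (-1.22), Sgk1 (-1.16) and Klf9 (-1.11) were lower, and Fkbp5, a co-chaperone of the receptor, was higher (1.84), at 734 and 1313 normalized counts in control 1 and 2 and 3749.9 and 3303 in tamoxifen 1 and 2. Mt2 (0.76, limma, BH-adjusted p = 0.0488) and Pdk4 (0.57, limma, BH-adjusted p = 0.0971), named after their values were seen, were also higher in both tamoxifen libraries without being called. Fkbp5 lost the adjusted p without tamoxifen 1 and without tamoxifen 2 (limma and BH, 0.0771 and 0.0750). With equal totals Ddit4 (-0.75), Sgk1 (-0.68) and Klf9 (-0.64) fell short of the size cut-off, as they did with quantile normalization (-0.96, -0.68 and -0.58). Sgk1 lost its call in 5 of 15 alternatives, the others being the fits without control 1 (-0.95), without tamoxifen 2 (-0.82, limma, BH-adjusted p = 0.0994) and without the trend (limma, BH-adjusted p = 0.0516), and Ddit4 lost it without tamoxifen 2 (limma, BH-adjusted p = 0.0611). Of 10 immediate early genes, 9 were called lower, beside 16.0% of all tested genes, and 1 was not called, with a median of -1.69, and Fosb (-2.52), Dusp1 (-2.44), Jun (-2.20), Atf3 (-1.996), Junb (-1.74) and Fos (-1.63) had the largest log2 fold changes, of which Atf3 (-1.29) and Dusp1 (-1.85) lost the adjusted p without tamoxifen 2 (limma and BH, 0.162 and 0.0684), and Atf3 also without the trend (0.0638). The 1 not called, Egr1, had 8457 and 4875 normalized counts in control 1 and 2 and 5705 and 4881 in tamoxifen 1 and 2, with overlapping groups, and was picked out after its value was seen. The part of these lists in the fall of Per1 was not tested.

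Markers of other cells changed too, most lists upward and thus opposite to most clock genes, and the pituitary list downward. Their part in the results was not tested. Beside the counts below, 28.6% of all tested genes were called higher and 16.0% lower. The 8 astrocyte markers summed to 28985 and 34647 in control 1 and 2 and 148340.0 and 309258 in tamoxifen 1 and 2 normalized counts, all 8 were called higher, and Slc1a2 was the most abundant, at 14581 and 112261 in the group means. Of 8 neuron markers, 6 were called higher, and the list summed to 1111 and 1383 in control 1 and 2 and 10229.9 and 15322 in tamoxifen 1 and 2, led by Tubb3 (167 and 5324). Both sums were thus higher with tamoxifen, most of all in tamoxifen 2, the library in which Rorb, Npas2 and the member Cry2 were highest. Cry2 and both sums rose in the same order of libraries, from control 1 and control 2 to tamoxifen 1 and tamoxifen 2, and a link was not tested. All 7 neutrophil markers were called higher, from a sum of 297 and 232 in the controls to 108979 and 81197, led by S100a9 (82.5 and 32215). The cells had been isolated as CD45–, a gate against leukocytes, and Ptprc, the gene of CD45, had 50.7 and 83.9 normalized counts in control 1 and 2 and 1423 and 1119 in tamoxifen 1 and 2 (log2 fold change 4.25, limma, BH-adjusted p = 4.99e-05). All 7 markers of pluripotent cells were called higher too, from a sum of 68.5 and 110.1 to 51305 and 39408, led by Tdgf1 (21.9 and 10124). The 6 pericyte and smooth muscle markers summed to 20427 and 34189 in control 1 and 2 and 21529.6 and 45332 in tamoxifen 1 and 2, with 1, Abcc9, called higher and Rgs5 the most abundant (21377 and 22300.3). This sum was higher in the library numbered 2 of each group. The 6 pituitary markers were all called lower and summed to 13118 and 36981 in control 1 and 2 and 127 and 95.6 in tamoxifen 1 and 2, led by Pomc (16972 and 88.9). Gh, Prl and Pou1f1 were at no more than 3 reads in both tamoxifen libraries. The pituitary sum was highest in control 2, the library in which Dbp and Nr1d1 were highest. Tef, Per2, Per3 and Nr1d2 were also highest in control 2, whereas Clock and Per1 were highest in control 1. A link was not tested. Beside these lists, the members' median log2 fold change of -1.15 was smaller in size than the -2.94 of the endothelial markers, a difference that was not tested.

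For each member, the tested genes outside these lists with the most similar profile were found by the Euclidean distance between log2 profiles centred over the 4 libraries. Nearest to Per1 were Ralgapa1 (distance 0.0638), 2010315B03Rik and Pcdh12, nearest to Clock were Gm7730, Cdan1 and Kmt2d (0.0646), and nearest to Nr1d2 were Fam98c, Ak3 and Zdhhc1. Nearest to Per2 were S100a1 (0.0187), Tafazzin and Gm20186, to Per3 Gm9905, 2310015A10Rik and 2610306M01Rik, and to Tef Gm45844, Lysmd2 and Btd. Nearest to Cry1 were Lsm8 (0.0117), Polr1f and Pcnt, and to Cry2 Gm13370, Ankrd42 and Gstp-ps. With 4 libraries many genes share a profile, and these distances describe the libraries only. Dbp and Nr1d1 had no neighbour as close, their nearest genes being Tmem184a (0.155) and Gm20627 (0.100), followed by Gm49594 and Gm3625 for Dbp and Gm49492 and Rab25 for Nr1d1. Among the members, Dbp and Nr1d1 were nearest to each other (0.353), and Per2 and Tef were the closest pair of all (0.175). Several named neighbours were scarce, such as Gm7730 (19.4 to 60.3 normalized counts over the libraries), Gm9905 (10.8 to 28.8), Gm13370 (8.22 to 17.3) and Gm20627 (7.59 to 33.8). Counting error weighs on their distances, whereas others were abundant, such as Kmt2d (11148 to 32094).

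Some members share exonic sequence with a gene on the opposite strand. The library kit keeps the strand, but the strand setting of the counting is not given in the sources used here, so reads of such partners cannot be told apart. In the GRCm39 annotation Nr1d1 (chromosome 11 from 98658752 to 98666188) shares 1694 exonic bases with Thra, the gene of thyroid hormone receptor α. Thra had 6428 and 7283 normalized counts in control 1 and 2 and 3446 and 3705 in tamoxifen 1 and 2, so that it too was lower in both tamoxifen libraries, but without the gap between the controls seen in Nr1d1. Clock (chromosome 5 from 76342860 to 76452846) shares 2047 bases with Tmem165, which had 2379 and 2103 normalized counts in control 1 and 2 and 2249 and 2067 in tamoxifen 1 and 2 and overlapping groups. It also overlaps Apc-ps1, Ube2n-ps1, Gm43658 and Gm7467, each of which had fewer than 100 normalized counts in each library. Dbp (chromosome 7 from 45354512 to 45359627) shares 539 bases with Sphk2, at 1479 and 1592 normalized counts in control 1 and 2 and 1127 and 994 in tamoxifen 1 and 2. The overlapping genes of Cry2 (D930015M05Rik) and Tef (Gm17597) likewise stayed under 100 normalized counts. Other genes that share exonic bases with a member were not analysed here, namely Gm62928 (916 bases with Tef), Gm69183 and Uts2 (449 and 154 with Per3), Gm72400 (334 with Per1) and Gm31862 (17 with Nr1d1).

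Because most members moved together, their promoters were searched for the sequences through which clock factors are known to act. The motifs were the E-box CACGTG, the E'-box CACGTT, the D-box TTATGTAA or TTACGTAA, the element of ROR and REV-ERB proteins TAGGTCA or TGGGTCA, and the cAMP element TGACGTCA, on both strands, with no overlap between the matches found. Promoters were RefSeq sequences of build GRCm38.p6, from 250 bases before to 50 after a gene's start, and 9 of the 10 members matched, with 13 promoters (Per2 did not). Of all 32851 promoters of that length, 7.15% held the E-box, 4.68% the E'-box, 1.06% the D-box, 6.45% the ROR and REV-ERB element and 1.79% the cAMP element. The E-box was found in 3 members (1 of the 2 promoters of Per1, that of Cry1 and both of Tef), the E'-box in 3 (Cry1, Cry2 and Nr1d1) and the D-box in 1 (Per3), and the promoters of Clock, Nr1d2 and Dbp held none of the motifs. A match describes these letters only, and no match says nothing of the factor.

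The E-box windows are shown because their genes changed unlike one another, Per1 by -1.86, Tef by -0.92 and Cry1 by 0.087 on the log2 scale. Capitals mark the motif, and each stretch is written 5′ to 3′ on the strand of the gene. The E-box starts 166 bases before the start of Per1 (chr11:69098763-69098808, plus strand), 127 and 138 bases before the starts of Tef (chr15:81802526-81802571 and chr15:81811256-81811301, plus strand) and 60 bases before that of Cry1 (chr10:85185089-85185153, minus strand), where an E'-box, read as AACGTG, lies 79 bases before the start.
Per1: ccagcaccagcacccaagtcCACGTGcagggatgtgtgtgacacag
Tef, upstream promoter: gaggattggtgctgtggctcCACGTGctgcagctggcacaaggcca
Tef, downstream promoter: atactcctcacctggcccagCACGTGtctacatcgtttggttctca
Cry1: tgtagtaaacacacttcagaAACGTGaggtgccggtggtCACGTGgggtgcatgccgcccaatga

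The remaining matches belong to Cry2 and Nr1d1, which moved in opposite directions and both hold an E'-box read as AACGTG, and to Per3, whose promoter holds the same D-box in 2 places. They start 166 bases before the start of Cry2 (chr2:92434210-92434255), 28 before that of Nr1d1 (chr11:98775380-98775425), and 205 and 158 before that of Per3 (chr4:151044796-151044890), all on the minus strand.
Cry2: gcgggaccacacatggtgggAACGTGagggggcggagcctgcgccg
Nr1d1: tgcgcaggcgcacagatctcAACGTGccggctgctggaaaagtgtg
Per3: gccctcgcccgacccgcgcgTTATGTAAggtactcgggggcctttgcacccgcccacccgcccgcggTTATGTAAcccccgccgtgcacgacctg

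Of the other clock transcription factors, 8 of 10 had promoters among these sequences, and 6 of these held a motif. Any of the motifs was found in 19.5% of all promoters, a share counted by promoter and not by gene. Ciart, the lowest in log2 fold change, held 3 E-boxes within the stretch before its start (chr3:95882247-95882364, minus strand), and Bhlhe41, which rose, held 1 (chr6:145865548-145865593, minus strand). Nfil3 held a ROR and REV-ERB element, read as TGACCTA, 12 bases before its start (chr13:52981040-52981071, minus strand), and Bmal1, entered under its older symbol Arntl, held TAGGTCA 30 bases after 1 of its 2 starts. Rorb held an E'-box, read as AACGTG, 234 bases before 1 of its 2 starts, Hlf held the cAMP element 9 bases before its start, and Npas2 and Rora held no motif. Bmal1 was lower and Nfil3 higher with tamoxifen, with log2 fold changes of -0.72 and 1.02. These depended on the scaling, at -0.25 for Bmal1 with equal totals and 0.17 for Nfil3 with quantile normalization. The part of the element was not tested.
Ciart: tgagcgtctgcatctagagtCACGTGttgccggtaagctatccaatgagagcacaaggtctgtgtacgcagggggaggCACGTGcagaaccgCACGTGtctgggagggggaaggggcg
Bhlhe41: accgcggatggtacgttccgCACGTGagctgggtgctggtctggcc
Nfil3: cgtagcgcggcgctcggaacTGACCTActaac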

How the data were processed

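RNA of brain cells was sequenced in 4 libraries, 2 control and 2 tamoxifen. Per the study's methods and processing notes, alignment to GRCm39 used STAR 2.7.10a, low-count genes were removed, and DESeq2 1.36.0 served for normalization. The signal deposited for a gene is its read count divided by 1 factor per library (0.730, 0.799, 0.923 and 1.39), here called normalized counts. Whole reads were recovered for 100% of values (within 0.05 reads). Columns lettered C and A were read as control and treated. The members and lists were chosen with earlier results of these data known, and 2 genes of the lists were taken out afterwards and are not reported here. Genes with a mean of at least 10 were tested with limma 3.58.1 (R 4.3.3, eBayes with trend) on log2(normalized count + 1), with BH adjustment over all tested genes, after a check on simulated data. A gene was called at an adjusted p under 0.05 and a log2 fold change over 1 in size. Named were all members, up to 6 genes per list past both cut-offs or over a mean of 1000, by size of change, overlapping genes, and the 3 most similar genes. The floor of 3 reads covers counting error only. Lengths and overlaps came from GENCODE, promoters from RefSeq. As alternatives, the pseudocount was set to 0.5 or 5, the filter dropped or raised to 100, totals made equal, quantile normalization applied, the trend dropped, a replicate block added, the recovered reads tested with edgeR (4.0.16, quasi-likelihood) or with DESeq2 (1.42.0), the adjusted p used alone, and each library omitted. Python 3.11.15, pandas 2.3.3 and matplotlib 3.10.9 were used. Ratios were repeated with a pseudocount of 5 and, chosen after seeing the data, with quantile normalization, and the motif search on the 250 bases before the start.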

Additional observations from a re-analysis of the deposited data

How the results depend on the processing

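Over the 10 clock genes and 15 alternatives, 128 of 150 results kept their direction and their call (past both cut-offs together, or not), 15 lost the call, 3 gained it, 3 more passed only because the size cut-off was dropped, and 1 changed sign. Taken apart, 128 kept their side of the adjusted p, and 117 kept their direction and their side of each cut-off. The count of members called was 6, between 3 and 7 with 1 library left out, and 3 without either tamoxifen library, where the remaining one is assumed to vary like the controls. Their median log2 fold change of -1.15 was -0.68 with equal totals and between -1.25 and -0.83 with 1 library left out, the latter without control 2. The count over all genes was 9151, and 5934 with the filter at a mean of 100, where fewer genes are tested, and between 4979 and 10001 with 1 library left out. Of the calls, 64.1% were higher, and 79.7% with equal totals and 45.6% with quantile normalization. Signs changed with equal totals for Bmal2 (0.34), Hlf (0.18), Noct (0.098) and Mgp (0.079), whereas Bmal2 was -1.10 and Mgp -0.65 with quantile normalization, and the log2 fold change with 1 library left out ranged from -0.0057 to 0.18 for Cry1 and from -0.61 to 0.040 for Hlf. Differences of log2 ratios ranged from -0.49 to 0.42 for Nr1d1 to Nr1d2 and from -0.78 to 0.026 for Dbp to Tef, positive without control 2. With quantile normalization, added after the data were seen, the difference changed sign for Per2 to Per3 (-0.17) and Nr1d1 to Nr1d2 (0.010), and 8 ratios had groups apart. Of 12 ratios computed, 9 had groups that did not overlap, and 10 to 11 with 1 library left out. Leaving out a library can only keep or raise this count, and the share over other gene pairs was not computed. The count of 6 members with a motif was the same in the shorter window. In the longer window 19.5% of all promoters held any of the motifs. Apart from the settings that test fewer genes or libraries, the cause was not tested.

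The sources used here do not say whether numbers 1 and 2 pair the libraries. The deviations of control 1 and tamoxifen 1 from their group means correlated at 0.025 over genes, which does not settle it. With a replicate block, 6 members and 9525 genes were called. The adjusted p-values borrow their spread from all genes through limma.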
